A study of Homo sapiens with 12 samples.

Results

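HCT116 cells, a human colorectal cancer line, were kept in DMSO at 0.05%, the solvent that served as the drug control, and were collected at 12 h or at 96 h. The comparison described here is the signal ratio of the 96 h column over the 12 h column for every gene row above background in at least 1 of the 2 columns, which kept 16368 of the 34687 rows of the table. RNA was hybridised to Illumina HumanHT-12 BeadChips, on which the brightness of labelled RNA bound to beads is read. Each of these 2 columns is the authors' mean of 2 arrays. The other 10 columns of the series hold HCT116 cells in ICG-001 or C646, each at 10 uM, and PANC1 cells, a pancreatic adenocarcinoma line, in the same 3 treatments, all at the same 2 time points. They too are means of 2 arrays, except PANC1 in ICG-001 at 12 h, a mean of 3. ICG-001 keeps β-catenin from binding the coactivator CBP, and C646 is an inhibitor of the acetyltransferase activity of CBP and its relative p300.

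Neither group received a drug, and both were grown in medium with fetal bovine serum. The culture histories differed with the time point. Per the study's methods, cells for 12 h were brought to a higher density before DMSO was added, whereas cells for 96 h were started sparser, were passaged before they became confluent and received fresh medium with DMSO every day. Hours in DMSO, starting density, passage, feeding and the day of collection therefore cannot be told apart. With 1 column per group there was no replicate check, and all differences are sizes without a test. A gene is called higher or lower here when its ratio was at least 1.5-fold.

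Genes that copy DNA are transcribed mainly around the start of S phase, many of them under E2F transcription factors, whereas genes needed for mitosis are switched on later through other promoter elements, among them the CHR element. In the hypoxia response, the HIF transcription factors are stabilised when oxygen is short and then bind a short core sequence near genes for glycolysis, pH control, mitophagy and vessel growth. HCT116 cells carry a mutated β-catenin and form an epithelial layer.

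Markers of other cell types were mostly under the detection limit. Of 8 colon epithelial markers, 6 were above the detection limit, namely EPCAM, KRT8, KRT18, KRT19, CDH1 and CDX2, while VIL1 and CDH17 were under it in both columns. None of 6 endothelial markers was above the limit. Of 8 fibroblast markers, COL1A1 and VIM were, and of 8 immune markers, CD68 and CD79A were. The summed signal of all 8 epithelial markers was 23005 at 12 h and 23558 at 96 h, and that of the fibroblast markers was 1282 and 1294. That of the immune markers was 1206 and 1354, of which CD68, which encodes a lysosomal membrane protein, accounted for 291 and 439. These sums include background. The 6 endothelial markers, all under the limit, summed to 757 and 763.

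At 96 h, 259 genes were higher (1.58% of those compared) and 260 were lower (1.59%). With background removed by normexp and the columns quantile normalized again, the counts were 819 and 799. The median log2 ratio over all genes compared was 0.01, and the 5th and 95th percentiles were -0.39 and 0.41. Ratios above 0 numbered 8557 and ratios below 0 numbered 7811. A ratio of 2-fold or more was reached by 22 higher genes (0.134%) and 27 lower genes (0.165%). The 18319 rows under the limit in both columns had a log2 ratio SD of 0.07, and 0 of them reached 1.5-fold. Background was left in the signal, so ratios of dim genes understate the difference. Of the 4092 dimmest genes compared, 0 reached 1.5-fold, against 267 of the 4092 brightest. Those 267 were 131 higher and 136 lower, so the share called among bright genes was above that over all rows. The counts of 259 and 260 are of rows, of which 241 and 245 had a resolved gene symbol, whereas lists count 1 row per gene. The S phase, licensing, polymerase and clamp, nucleotide and recombination lists were joined as DNA replication lists, though not every member acts in replication. Of 118 of their genes compared, 57 were lower (48.3%, beside 1.59% of all rows compared), which is 21.9% of the 260 lower rows. Of 48 hypoxia and glycolysis genes compared, 18 were higher (37.5%, beside 1.58%), which is 6.95% of the 259 higher rows. Both groups are described below, with promoters of 3 members of each printed first.

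**Figure D1:**
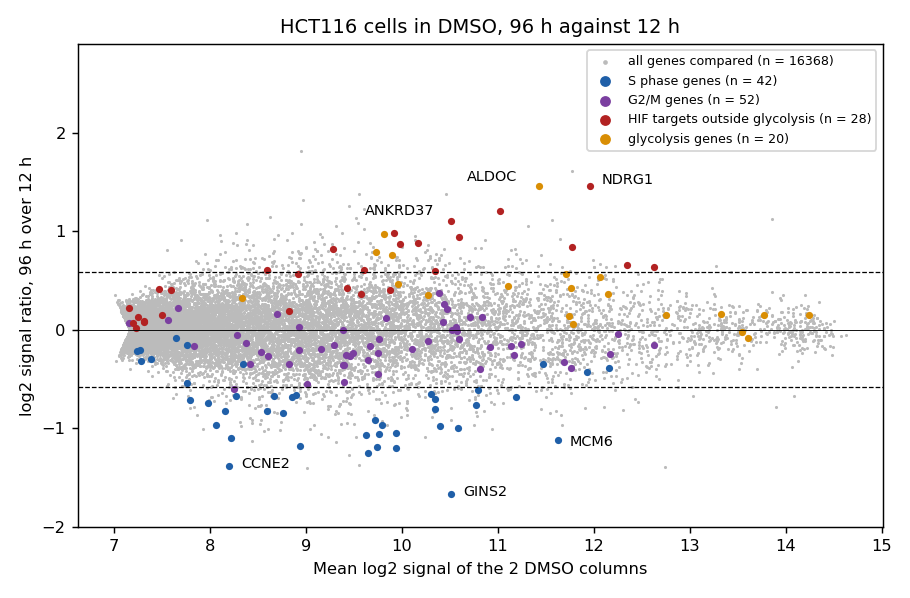
Each point is a gene compared between the DMSO columns, with its mean log2 signal on the x axis and its log2 ratio of 96 h over 12 h on the y axis, and dashed lines mark 1.5-fold. The 42 S phase genes lie below 0, the 28 HIF targets outside glycolysis lie above 0, and the 52 G2/M genes spread about a median of -0.16.

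Promoters were taken as the 250 bases before the RefSeq start of a gene (GRCh38.p14, 5′ to 3′ on the strand of the gene), and short motifs were searched on both strands. The E2F motif was searched as TTCCCGC. Its 3 accepted variants were TTCGCGC, in which the middle differs, the related form TTGGCGC, and also the mixed form TTGCCGC. They occurred in 11% of all 27305 promoters and in 17.7% of the 9625 promoters of genes compared here. Among 33 S phase genes with a promoter in the table, 18 (54.5%) held at least 1, and among 25 licensing and firing genes 10 did (40.0%). Of the genes lower at 96 h, 66 of 191 promoters (34.6%) held an E2F motif, against 20 of 180 (11.1%) for the genes higher at 96 h. The 3 promoters below belong to replication genes lower at 96 h and were selected for holding a match, which is in capitals.
GINS2: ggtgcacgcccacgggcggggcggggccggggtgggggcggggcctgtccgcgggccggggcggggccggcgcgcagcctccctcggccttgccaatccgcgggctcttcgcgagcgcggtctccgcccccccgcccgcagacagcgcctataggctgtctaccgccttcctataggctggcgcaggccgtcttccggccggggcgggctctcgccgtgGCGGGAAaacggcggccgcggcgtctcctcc
MCM6: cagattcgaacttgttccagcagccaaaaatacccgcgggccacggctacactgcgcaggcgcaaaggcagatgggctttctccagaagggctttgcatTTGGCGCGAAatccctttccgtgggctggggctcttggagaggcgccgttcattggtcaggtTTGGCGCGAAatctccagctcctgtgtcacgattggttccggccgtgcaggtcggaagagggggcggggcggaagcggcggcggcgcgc
DTL: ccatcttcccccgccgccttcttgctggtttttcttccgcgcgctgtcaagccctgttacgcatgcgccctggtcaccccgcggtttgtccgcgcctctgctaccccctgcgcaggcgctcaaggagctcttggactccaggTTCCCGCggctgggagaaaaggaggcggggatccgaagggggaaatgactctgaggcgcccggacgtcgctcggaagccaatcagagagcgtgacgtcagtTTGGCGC
The window of GINS2, chr16:85688955-85689204 on the minus strand, has 1 match, which begins 31 bases before the start. That of MCM6, chr2:135876444-135876693 on the minus strand, has 4 overlapping matches in 2 blocks, the first beginning 151 and the last 86 bases before the start. That of DTL, chr1:212035498-212035747 on the plus strand, has 2, beginning 108 and 7 bases before the start. A match is a stretch of letters and was not tested as a binding site.

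The core of the hypoxia response element was searched as ACGTG and GCGTG. It is a common sequence, found in 43.1% of all promoters and in 57.4% of those of genes compared. Hypoxia and glycolysis genes held it in 30 of 45 promoters (66.7%), and the genes higher and lower at 96 h held it in 58.9% and 60.2%. The core therefore separated the higher from the lower genes little. The 3 promoters below belong to hypoxia and glycolysis genes higher at 96 h and were again selected for holding the core, in capitals on either strand.
ALDOC: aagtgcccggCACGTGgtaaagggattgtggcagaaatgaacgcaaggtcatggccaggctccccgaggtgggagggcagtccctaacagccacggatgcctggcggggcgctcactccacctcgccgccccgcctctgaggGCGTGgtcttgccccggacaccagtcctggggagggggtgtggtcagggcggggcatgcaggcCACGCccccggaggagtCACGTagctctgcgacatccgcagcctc
BHLHE40: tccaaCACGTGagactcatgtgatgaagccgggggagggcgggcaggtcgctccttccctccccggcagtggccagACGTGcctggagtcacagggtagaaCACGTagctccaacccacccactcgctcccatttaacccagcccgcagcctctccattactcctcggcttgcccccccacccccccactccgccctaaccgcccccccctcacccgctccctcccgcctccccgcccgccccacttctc
ANKRD37: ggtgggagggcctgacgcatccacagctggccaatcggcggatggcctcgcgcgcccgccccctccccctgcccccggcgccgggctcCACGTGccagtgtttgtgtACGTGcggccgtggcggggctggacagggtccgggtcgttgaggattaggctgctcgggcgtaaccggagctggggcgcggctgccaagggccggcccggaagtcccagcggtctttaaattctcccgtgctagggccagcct
The window of ALDOC is chr17:28576896-28577145 on the minus strand, with 5 matches. That of BHLHE40 is chr3:4979187-4979436 on the plus strand, with 4, and that of ANKRD37 is chr4:185396591-185396840 on the plus strand, with 3. In each of the 3 windows, 2 matches are the overlapping strands of one palindrome. The CHR element was searched as TTTGAA and was in 24 of 45 G2/M promoters (53.3%) against 13.6% of all promoters, 8.33% of genes compared and 1 of 33 S phase promoters (3.03%).

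Most S phase genes were lower at 96 h. Of 42 compared, 31 were lower, 0 were higher and 42 had a ratio below 0, with a median log2 ratio of -0.75 beside 0.01 over all genes compared. Fewer cells in S phase and less of these transcripts per cell cannot be told apart in RNA from whole cultures. The S phase and G2/M lists were those of the Seurat package. GINS2, a subunit of the GINS complex of the replicative helicase, was at 2608 at 12 h and 821 at 96 h, a log2 ratio of -1.67 or 3.18-fold lower. CCNE2, the cyclin E2 that drives entry into S phase with CDK2, was at 476 and 182 (log2 ratio -1.38). Among rows with a current symbol, none had a larger decrease than GINS2. TYMS, which makes thymidylate, was at 5216 and 3995 and did not reach 1.5-fold (log2 ratio -0.38). CDC6, the helicase loader, was near the limit at 12 h (163) and under it at 96 h (141), so its decrease is given as a bound of at least 1.13-fold.

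The helicase that opens the origins accounted for many of the largest decreases. Of 28 licensing and firing genes compared, 16 were lower and 0 higher, with a median of -0.63, and 9 of the genes also stand in the S phase list. All 6 subunits of the MCM2 to MCM7 ring were lower. MCM2 was at 1215 and 468 (log2 ratio -1.38), MCM4 at 1231 and 519 (-1.25) and MCM5 at 1483 and 647 (-1.20). MCM6 was at 4674 and 2145 (-1.12), MCM3 at 4544 and 2321 (-0.97) and MCM7 at 2962 and 1842 (-0.69), so the ring was lower by 1.61-fold to 2.60-fold. MCM10, which helps to activate the helicase, was at 838 and 316 (-1.41), and CDC45, the partner of MCM and GINS in that helicase, at 1290 and 565 (-1.19). CDT1, the loading factor, was at 1225 and 644 (-0.93), and its inhibitor GMNN at 1659 and 1018 (-0.70). Subunits of the origin recognition complex differed among themselves. ORC1 (328 and 204, -0.68) and ORC3 (990 and 657, -0.59, just inside the threshold) were lower. ORC6 (10243 and 9603) and ORC2 (763 and 716) had log2 ratios of -0.09 each. MCM8, a helicase of recombination, was at 1719 and 2098 (0.29).

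Of 24 polymerase and clamp genes compared, which work at the replication fork, 13 were lower and 0 higher (median -0.62, 23 ratios below 0), and after normexp 1, POLD4, was higher. POLA2, a subunit of the priming polymerase, was at 516 and 235 (log2 ratio -1.13), and POLE2, of the leading strand polymerase, was at 1071 and 505 (-1.09). RFC4, of the clamp loader, was at 2778 and 1383 (-1.01), and PCNA, the sliding clamp, at 2276 and 1341 (-0.76). LIG1, which joins Okazaki fragments, had a log2 ratio of -0.24 (521 and 442), and POLD4, a small subunit of polymerase delta, one of 0.36 (183 and 234). CHAF1B, of the complex that places histones behind the fork, was at 741 and 326 (-1.18).

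Supply of nucleotides and repair of forks were lower for fewer members. Of 24 nucleotide synthesis genes, 5 were lower (median -0.31), among them CTPS1, RRM2, PFAS and, just inside the threshold, DCTPP1 (1.5003-fold). CTPS1, which makes CTP, was at 942 and 428 (log2 ratio -1.14), and RRM2, the S phase subunit of ribonucleotide reductase, at 1149 and 548 (-1.07). Of 21 homologous recombination and Fanconi genes, 7 were lower (median -0.47), among them EXO1 (376 and 192, log2 ratio -0.97), RAD54L (484 and 286, -0.76) and FANCI (863 and 523, -0.72). XRCC2, of the same list, was at 705 and 892 (0.34). Over the 5 replication lists together, 57 of 118 genes were lower (48.3%), 0 were higher and 114 had a ratio below 0.

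Of 13 E2F and pocket protein genes, 2 were lower and 0 higher (median -0.10), beside 1.59% lower over all rows compared. E2F2, an activating member of the E2F family, was at 1089 and 452 (log2 ratio -1.27), and E2F7, a repressing member, at 405 and 263 (-0.62), whereas E2F1 was at 278 and 259 (-0.10) and E2F3 at 1307 and 1315 (0.01). Of 14 genes for cyclins, their kinases and the enzymes that act on those kinases, 4 were lower, CCNE2, CDC25A, CDK4 and CDK2, and CCND1, the cyclin of early G1, was at 4164 and 4574 (0.14). None of 7 CDK inhibitor genes reached 1.5-fold as deposited, and CDKN1C (297 and 415, 0.49) did after normexp (0.65). CDKN1A, the p53 target p21, was at 1864 and 1968 (0.08). MYC was at 3267 and 4307 (0.40).

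G2/M genes did not share the size of the S phase difference. Of 52 compared, 1 was lower (TMPO, a nuclear lamina protein, 376 and 247, log2 ratio -0.61) and 0 were higher, with a median of -0.16 and 37 of 52 ratios below 0. Over all rows compared, 1.59% were lower and 7811 of 16368 had a ratio below 0. TOP2A, the mitotic topoisomerase, was at 2549 and 2305 (-0.14), MKI67, the Ki-67 proliferation antigen, at 242 and 216 (-0.16), and AURKA, a spindle kinase, at 1532 and 1515 (-0.02). The lists differ in signal as well, since the S phase genes had a median signal of 741 at 12 h and the G2/M genes one of 884. After normexp the median log2 ratios were -1.04 for S phase and -0.20 for G2/M. Whether signal bears on the gap between the lists was not tested. Replication-dependent histone genes, whose transcripts mostly lack the poly(A) tail, had a median of 0.01, with 1 of 13 lower, H4C3, at 20021 and 11608 (-0.79).

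Of 28 HIF targets outside glycolysis compared, 14 were higher, 0 were lower and 28 had a ratio above 0, with a median log2 ratio of 0.58. With no filter on dim genes, the median over the 31 targets with a row was 0.42. NDRG1, a stress-responsive gene that is a standard hypoxia marker, was at 2405 and 6621 (log2 ratio 1.46, 2.75-fold). BHLHE40, a transcriptional repressor, was at 1366 and 3159 (1.21), ANKRD37 at 996 and 2137 (1.1), and KDM3A, a histone demethylase, at 687 and 1361 (0.99). BNIP3 and BNIP3L, receptors for the removal of mitochondria, had log2 ratios of 0.84 (2606 and 4677) and 0.88 (851 and 1565). ADM, which encodes the vasodilator adrenomedullin, was at 4126 and 6519 (0.66). Other well known genes of the programme had signals close to the limit of 144 and did not reach 1.5-fold, namely CA9, a carbonic anhydrase (153 and 205, log2 ratio 0.42, but 0.89 after normexp, past 1.5-fold), VEGFA, a vessel growth factor (155 and 164, 0.08) and EGLN3, a prolyl hydroxylase that marks HIF for destruction (149 and 152, 0.02).

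Of 20 glycolysis genes compared, 4 were higher and 0 lower, with a median of 0.36 and 18 ratios above 0. ALDOC, the brain-type aldolase, was at 1662 and 4559 (log2 ratio 1.46), SLC2A3, a glucose transporter, at 642 and 1256 (0.97), ENO2 at 648 and 1120 (0.79) and HK2 at 731 and 1237 (0.76). ENO2 is an enolase and HK2 a hexokinase. Brighter members of the pathway did not reach 1.5-fold, with PGK1 at 4005 and 5136 (0.36), SLC2A1 at 3009 and 4031 (0.42) and LDHA at 12798 and 12096 (-0.08). HIF1A itself, whose protein is regulated by stability, was at 586 and 568 (-0.04), and of 9 HIF regulators only EPAS1, which encodes HIF-2α, was higher (486 and 761, 0.65). Nuclear genes of oxidative phosphorylation had a median of -0.06, with 1 of 73 lower, NDUFA6 (879 and 534, -0.72), beside 1.59% lower over all rows compared.

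**Figure D2:**
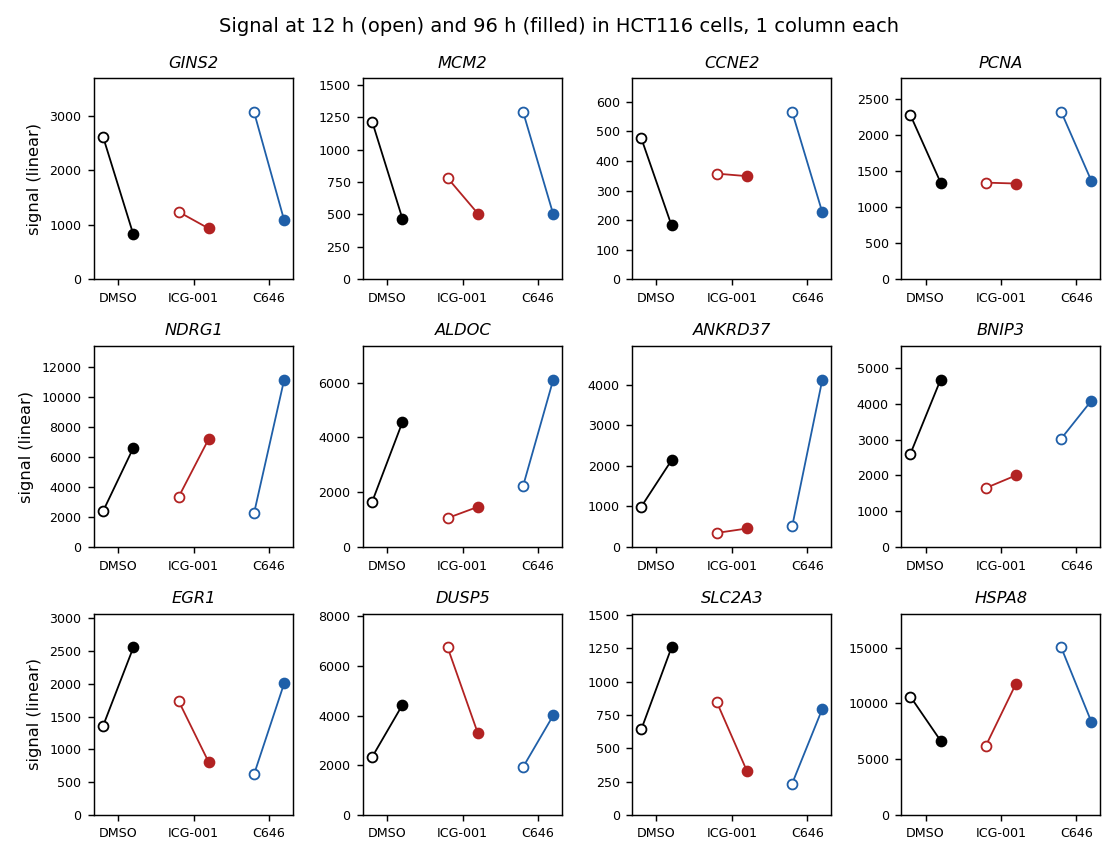
Linear signal (y axis, starting at 0) of 12 genes in the 6 HCT116 columns, with 12 h as open and 96 h as filled points joined by a line, 1 column per point and no error bars because single arrays were not used here. The genes were chosen after their values were seen. The decrease of GINS2 from 2608 to 821 in DMSO stands beside 1237 to 931 in ICG-001 and 3071 to 1083 in C646.

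Of 26 immediate early and ERK feedback genes compared, 5 were higher and 0 lower (median 0.30, 24 ratios above 0). The values over all rows compared were 1.58% higher and 8557 of 16368 ratios above 0. ZFP36, which destabilises cytokine transcripts, was at 874 and 2275 (log2 ratio 1.38), and FOS, a subunit of AP-1, at 331 and 652 (0.98). DUSP5, an ERK phosphatase, was at 2338 and 4431 (0.92), EGR1 at 1361 and 2554 (0.91) and SPRY1, an inhibitor of receptor tyrosine kinase signalling, at 259 and 404 (0.64). FOSL1, of the same family as FOS, was at 392 and 361 (-0.12).

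All 14 integrin and laminin genes compared, which anchor cells to the matrix, had ratios above 0, with 3 of them higher, ITGA3 (969 and 1629, log2 ratio 0.75), LAMB1 (316 and 510, 0.69) and LAMB2 (281 and 434, 0.63), and a median of 0.41. Of 18 epithelial junction genes, 2 were higher, TJP3, a tight junction scaffold (499 and 1091, 1.13), and CGN, the tight junction protein cingulin (413 and 730, 0.82), and 4 had ratios below 0 (median 0.18). KLF4, a zinc finger factor of differentiated epithelium, was at 512 and 1081 (1.08). It was the 1 higher gene among the 6 of 31 intestinal differentiation genes above the limit, of which 4 had ratios above 0 and 2 below (median 0.02), the lowest being CDX2 (435 and 354, -0.30). Of 28 lysosome and autophagy genes, 3 were higher, WIPI1, CTSB and GABARAPL1 (log2 ratios 0.68, 0.63 and 0.62). Among 25 interferon-stimulated genes 3 were, IRF9, IFI6 and IFITM3 (0.71, 0.66 and 0.64). These small counts stand beside 1.58% higher over all rows compared, and 131 of the 4092 brightest genes.

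Ribosome biogenesis, heat shock and ATF4 target genes had medians below 0. For comparison, 1.59% of all rows compared were lower, and 7811 of 16368 had a ratio below 0. Of 30 ribosome biogenesis genes, 3 were lower, NOP56 (4355 and 2389, log2 ratio -0.87), MRTO4 (675 and 379, -0.83) and NOP16 (848 and 505, -0.75), with a median of -0.28 and 28 ratios below 0. The 76 ribosomal protein genes had a median of 0.01, with 1 higher and 1 lower. Of 17 heat shock genes, 4 were lower, among them HSPH1 (5053 and 2914, -0.79) and HSPA8, the constitutive HSP70 (10606 and 6654, -0.67). Of 29 targets of ATF4, the factor of the amino acid response, 5 were lower and 0 higher (median -0.22). They were WARS1 (953 and 496, -0.94), TRIB3 (1381 and 749, -0.88), SLC7A5 and SLC3A2, the chains of one amino acid transporter (4137 and 2330, -0.83, and 898 and 568, -0.66), and PSAT1, an enzyme of serine synthesis (-0.61).

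Other programmes showed few or no genes at 1.5-fold. None of 15 WNT feedback and crypt stem cell genes reached it (median 0.14), and 1, EPHB3, did after normexp. AXIN2, a direct target of β-catenin, was at 766 and 643 (log2 ratio -0.25), DKK1, a secreted WNT inhibitor, at 3690 and 5294 (0.52), and LGR5, the crypt stem cell receptor, was under the limit in both columns. YAP targets, which respond to cell density, had a median of 0.11 over 15 genes and 0 at 1.5-fold, with CCN1 at 192 and 208 and CCN2 at 165 and 202. After normexp, 2 of the 15 passed it, CCN2 (0.59) and F3 (0.65). CCN1 and CCN2 were not far above the detection limit, and the 21 listed YAP targets had a median signal of 165 at 12 h. Few genes this dim reached 1.5-fold, with 11 higher and 16 lower among 4092 genes at mean signals of 162 to 262. The count of 0 therefore does not show that YAP targets were unchanged. Of 23 p53 targets, 2 were higher, TP53INP1 (377 and 643, 0.77) and RRM2B (418 and 628, 0.59, just inside the threshold). Cholesterol synthesis, ER chaperone, NF-kB and TGF-beta genes had 0 members at 1.5-fold among 20, 17, 10 and 10 compared. After normexp, EBP, DNAJC3 and BIRC3 of the first 3 lists passed it, BIRC3 at 0.73. The WNT, NF-kB and TGF-beta lists were dim as well, with median signals of 165, 142 and 193 at 12 h. Their counts of 0 likewise do not show that these genes were unchanged. The shares over all rows compared were 1.58% higher and 1.59% lower, so small lists could hold 0 at that share.

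The largest single differences included genes of no list. LEMD1, a cancer-testis gene, was highest by ratio, at 263 and 924 (log2 ratio 1.81, 3.51-fold). KLHL24, an E3 ligase adaptor, was at 464 and 1210 (1.38), AHNAK2 at 319 and 795 (1.32), with a second row of the gene at 231 and 487 (1.07), and TNFRSF6B, a decoy receptor for FAS ligand, at 451 and 1077 (1.26). SAT1, which breaks down polyamines, was at 10061 and 21893 (1.12), the brightest of the 15 largest increases. MTND5P10, a row named for a pseudogene of a mitochondrial gene, was at 2003 and 6134 (1.61), and the gene its probe reads is uncertain. RBM14, a nuclear RNA-binding protein, was among the 15 largest decreases, at 1764 and 830 (-1.09).

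**Figure D3:**
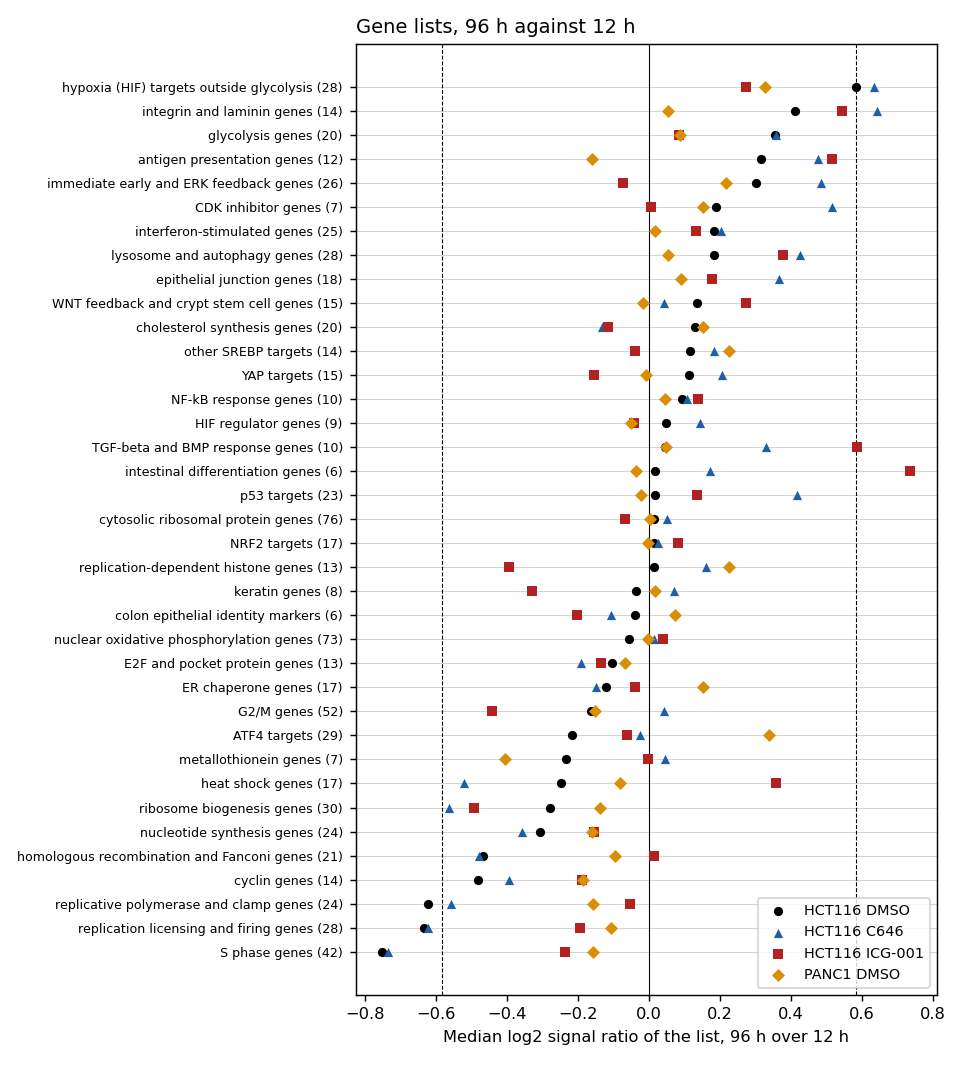
Median log2 ratio of 96 h over 12 h (x axis) for each gene list with at least 5 genes compared in HCT116 DMSO (y axis, that number in parentheses), with each comparison's median taken over its own genes above the limit. Circles are HCT116 DMSO, triangles C646, squares ICG-001 and diamonds PANC1 DMSO, and dashed lines mark 1.5-fold. The S phase median lies at -0.75 in DMSO and -0.74 in C646, and at -0.24 in ICG-001 and -0.16 in PANC1 DMSO.

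The same time comparison was made within each drug, and it shares no column with the DMSO comparison. Per the study's methods, starting density, passage and feeding differed with the time point in the drug cultures as in DMSO. Agreement between treatments therefore does not separate hours of treatment from culture history. In C646, 650 genes were higher (3.98%) and 560 were lower (3.43%) at 96 h. Of the 259 genes higher in DMSO, 196 were also higher in C646 (75.7% of the DMSO genes and 30.2% of the C646 genes), and of the 260 lower, 190 were also lower (73.1% and 33.9%). None was called in opposite directions. Across 15160 genes, which are not independent replicates, Pearson's r was 0.80 and Spearman's rho 0.74. S phase genes had a median of -0.74 in C646 with 29 of 42 lower, and HIF targets one of 0.63 with 14 of 27 higher. ANKRD37 was at 507 and 4124 in C646 (log2 ratio 3.02).

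In ICG-001, 697 genes were higher (4.16%) and 474 lower (2.83%). Of the DMSO genes, 91 were also higher and 52 also lower (35.1% of 259 and 20% of 260, or 13.1% and 11% of the ICG-001 genes), with r 0.41 and rho 0.39 over 15108 genes. S phase genes had a median of -0.24, with 3 of 42 lower. The median signal of the 43 S phase genes was 741 and 379 in DMSO, 557 and 437 in ICG-001 and 862 and 489 in C646. At 12 h this median was thus lowest in ICG-001. PCNA was at 1339 and 1327 in ICG-001. The G2/M median was -0.44 in ICG-001 with 17 of 51 lower, beside 0.04 in C646 and -0.16 in DMSO. No test of these differences between treatments could be made.

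Rows called in opposite directions in DMSO and ICG-001 numbered 15, and were singled out after their values were seen. Of these, 13 were higher in DMSO and lower in ICG-001, among them EGR1 (1738 and 802 in ICG-001, log2 ratio -1.12), DUSP5 (6747 and 3290, -1.04), FOS (356 and 194, -0.88) and SLC2A3 (847 and 329, -1.36). HSPA8 and the row of its pseudogene HSPA8P5 went the other way, HSPA8 being at 6191 and 11770 in ICG-001 (0.93). The heat shock list had a median of -0.25 in DMSO, -0.52 in C646 and 0.36 in ICG-001, and the immediate early list one of 0.30, 0.48 and -0.07.

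**Figure D4:**
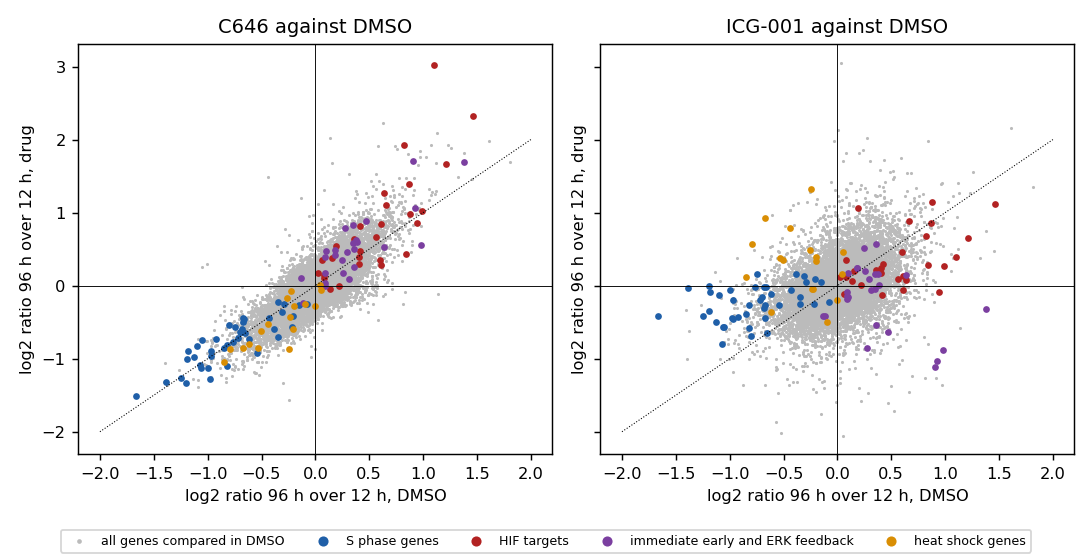
Log2 ratio of 96 h over 12 h in DMSO (x axis) against the same ratio in C646 (left) or ICG-001 (right; y axes), 1 point per gene compared in DMSO, with the line of equal ratios dotted. Over all genes compared in both, r was 0.80 for C646 and 0.41 for ICG-001. S phase genes (blue) had a median of -0.75 in DMSO, -0.74 in C646 and -0.24 in ICG-001, and some HIF targets (red) lie well above the line for C646, such as ANKRD37 at 1.1 in DMSO and 3.02 in C646.

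Genes higher in all 3 HCT116 treatments numbered 80, beside 259, 697 and 650 in DMSO, ICG-001 and C646 singly (1.58%, 4.16% and 3.98%). Genes lower in all 3 numbered 45, beside 260, 474 and 560 (1.59%, 2.83% and 3.43%). Among the first were LEMD1, NDRG1, KLHL24, TNFRSF6B, BHLHE40, TJP3 and YPEL5, and among the second MCM2, RRM2, GINS3, CHEK1, the checkpoint kinase of stalled forks, and CBX1, a heterochromatin protein. CHEK1 was at 918 and 474 in DMSO, 864 and 514 in ICG-001 and 932 and 569 in C646. LEMD1 was at 160 and 408 in ICG-001 and at 143 and 462 in C646.

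In PANC1 cells in DMSO, 162 genes were higher (0.999%) and 55 lower (0.339%). Of the genes called in HCT116, 17 of 259 were also higher (6.56%, or 10.5% of the PANC1 genes). Of the 260 lower, 3 were also lower (1.15%, or 5.45%) and 5 were higher in PANC1, while 0 of the 259 were lower there. Of the 259 and 260, 232 and 259 were among the genes compared in both lines. Pearson's r was 0.27 over 14355 genes. The HIF target median was 0.33 with 4 of 23 higher. ALDOC had a log2 ratio of 1.43 there beside 1.46 in HCT116, and NDRG1 one of 0.67. The S phase median was -0.16 with 0 of 42 lower, and GINS2 had a log2 ratio of -0.28.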

How the data were processed

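Signal intensities on a linear scale were deposited by the authors, 1 value per gene name and group. By the methods, GenomeStudio applied quantile normalization without subtracting background, and the authors then averaged the arrays of a group, 2 per HCT116 column. Neither single arrays nor their detection calls were used here. No spread, test or p-value can therefore be given, and the number of arrays limits the precision.

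Groups came from the labels. Signals were converted to log2 and subtracted (Python 3.11.15, numpy 2.4.6, pandas 2.3.3). The detection limit was the peak of a column's log2 signals plus 2.33 SD of the values below it, at a signal of 144 in both DMSO columns. A gene under it in 1 column has its fold given as a bound. Row names were matched to RefSeq (GRCh38.p14), 17755 by current symbol, 3305 by older symbol and 2669 by gene identifier. A further 10814 matched nothing, and 144 with an ambiguous older symbol stayed unassigned. Where a gene had several rows, lists used the brightest. The genome build of the array annotation was not given in the sources used here.

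The comparison, the 40 gene lists and the rule for named genes were chosen with earlier results of these data known. Named genes were the 15 largest differences in each direction, up to 4 per list and direction at 1.5-fold, a fixed set, and up to 10 per direction called in all 3 HCT116 treatments. Other members named were chosen after their values were seen, and some members are not reported here. Alternatives were thresholds of 1.2-fold and 2-fold, no filter, a limit at 5 SD, normexp background correction (limma 3.58.1, R 4.3.3, offset 16) with quantile normalization, centring on the median and all rows of a gene. The steps were tested on simulated data, in which only genes well above the limit were changed, by 2-fold, with noise the size of the background spread. That does not test calls at 1.5-fold, dim genes or the noise of brighter genes.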

Additional observations from a re-analysis of the deposited data

Results flagged for a closer look

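Between the cell lines, 8 named genes and 1 gene list had every HCT116 ratio of 96 h over 12 h on one side of 0 and every PANC1 ratio on the other, over the 3 treatments of each line. The difference was not tested, and several of the ratios are close to 0. For each item the value given first is the mean log2 ratio in HCT116 minus that in PANC1.

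Of the genes with the larger 96 h over 12 h ratio in HCT116, which need not have the larger signal there, TMEM158 differed by 1.85. Its log2 ratios were 1.12, 1.41 and 1.68 in HCT116 DMSO, ICG-001 and C646, and -0.44, -0.21 and -0.69 in PANC1. EPAS1 differed by 1.25, with PANC1 ratios of -0.22, -0.08 and -0.06. KLF4 differed by 1.1, with PANC1 ratios of -0.01, -0.08 and -0.07, all near 0. CD68 differed by 0.78, with PANC1 ratios of -0.41, -0.12 and -0.15.

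Of the ATF4 targets, TRIB3 differed by -1.65 (log2 ratios -0.88, -0.48 and -0.41 in HCT116 and 1.29, 0.66 and 1.22 in PANC1). SLC7A5 differed by -1.0, with 1.02, 0.26 and 0.20 in PANC1. SLC3A2 differed by -0.97, with 0.58, 0.30 and 0.20, and WARS1 by -0.96, with 0.16, 0.71 and 0.24. The median of the ATF4 target list differed by -0.42, being -0.22, -0.06 and -0.02 in HCT116 and 0.34, 0.34 and 0.28 in PANC1.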

How the results depend on the processing

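No paired analysis was possible because each group has 1 column and no test was made. With no replicates, a list median or a gene's ratio was taken as moved when it changed by more than the background SD of 0.07 (log2). That SD is from rows under the limit and is a yardstick only, not the noise of brighter genes. The counts of 259 higher and 260 lower genes became 1969 and 1696 at 1.2-fold, 22 and 27 at 2-fold, and 819 and 799 after normexp and quantile normalization, which held all 259 of the higher and 259 of the lower genes. The counts stayed within 1.5 times with no filter, with a limit at 5 SD and with centring. After normexp, lower genes went from 1 to 3 in the G2/M list, from 4 to 7 in the cyclin list, from 7 to 12 in recombination, from 5 to 8 among ATF4 targets, from 3 to 5 in ribosome biogenesis and from 1 to 5 in oxidative phosphorylation, and higher genes from 3 to 6 in the interferon list and from 3 to 5 among integrins and laminins. Normexp moved 14 list medians, all away from 0: S phase to -1.04, licensing to -0.80, polymerase and clamp to -0.71, nucleotide synthesis to -0.40, recombination to -0.63, E2F to -0.21, ATF4 to -0.39, ribosome biogenesis to -0.35, HIF targets to 0.67, interferon to 0.26, antigen presentation to 0.39, NF-kB to 0.17, WNT to 0.21, and integrin and laminin to 0.53. With no filter, HIF targets were at 0.42, interferon at 0.10, antigen presentation at 0.21, WNT at 0.064, junction at 0.082, integrin and laminin at 0.28 and metallothionein at -0.089. Medians of 6 lists turned sign, 5 of them within 0.07 of 0: keratin (0.054 with no filter, 0.072 at 5 SD), intestinal differentiation (-0.13 at 5 SD), histones (-0.011 with no filter, -0.030 at 5 SD), NRF2 targets (-0.026 with no filter, -0.017 after normexp), colon epithelial markers (0.084 with all rows of a gene) and immune markers (-0.017 with no filter; at 5 SD CD68 alone remained, at 0.60). At 5 SD, p53 targets were at 0.088 and TGF-beta genes at 0.12. With all rows of a gene, polymerase and clamp genes were at -0.50. Centring moved no median and none of 127 named genes, and normexp moved 81 of the 127 and reversed 0. The causes were not tested. Of the 4092 dimmest genes compared, 0 reached 1.5-fold, so differences among dim genes were not detectable by this measure.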
